A study of Mus musculus with 2 samples.

Results

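The 10 genes described here encode precursors of neuropeptides, the short signalling peptides that neurons release beside their fast transmitters. They are Npy, Sst and Cck of cortical interneurons, Penk and Tac1 of striatal projection neurons, Avp, Oxt, Pomc and Trh of the hypothalamus, and Adcyap1, which is used more widely. They were taken by name out of 43346 genes listed for each library, by a rule of names that uses no measured value, although earlier results of these data were known when they were chosen, and each matched 1 gene identifier. RNA was measured in forebrains of newborn B6NCrl mice (postnatal, age 0 days) that carried no stated allele or treatment. The labels name the assay total RNA-seq. There were 2 libraries in 1 group, pup 1 (replicate 1) and pup 3 (replicate 2), each from a single forebrain and from 13 pg of RNA longer than 200 nt, which is 1 cell-equivalent. The labels call the pups separate but give both 1 donor identifier. Despite its single-cell listing the assay started from whole-tissue RNA. A low value can therefore reflect few cells of a type, little RNA per cell or RNA not captured from 13 pg, and these cannot be told apart.

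Neuropeptides are made as longer precursors that pass through the secretory pathway into dense-core granules. Prohormone convertases cut them after pairs of basic residues, carboxypeptidase E trims the ends, and many peptides are then amidated. The released peptide acts on G protein-coupled receptors, often at a distance from the site of release. In the forebrain each precursor marks particular neurons: somatostatin and neuropeptide Y label GABAergic interneurons, enkephalin and substance P label the indirect and direct pathways of the striatum, and vasopressin, oxytocin, thyrotropin-releasing hormone and the melanocortins come from hypothalamic nuclei.

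What these genes encode can be read from their coding sequence. The stretches below are shown because they code for the active part of the peptide, which lies between basic cleavage sites in most precursors, and because they show which precursors share a core. They were read from GENCODE M21 transcripts on GRCm38 (mm10), in the sense of the gene, and capitals mark the codons of the core that was searched for in the translated sequence. The core of somatostatin is phenylalanine-tryptophan-lysine-threonine (chr16:23889732-23889767, minus strand), and that of cholecystokinin is tryptophan-methionine-aspartate-phenylalanine (chr9:121490092-121490130, minus strand). Substance P (chr6:7556738-7556779) and neurokinin A (chr6:7559104-7559145), both cut from the Tac1 precursor and on the plus strand, end alike in phenylalanine, a residue that differs between them, glycine, leucine and methionine. The opioid core tyrosine-glycine-glycine-phenylalanine is shown once from Penk as met-enkephalin (chr4:4134214-4134252) and once as leu-enkephalin (chr4:4133929-4133967), both on the minus strand, and from Pomc, where it opens beta-endorphin (chr12:3960361-3960399, plus strand).
Sst: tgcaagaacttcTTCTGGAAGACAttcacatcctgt
Cck: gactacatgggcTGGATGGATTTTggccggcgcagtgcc
Tac1, substance P: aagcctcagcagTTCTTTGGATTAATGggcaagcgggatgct
Tac1, neurokinin A: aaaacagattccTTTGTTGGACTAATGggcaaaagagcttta
Penk, met-enkephalin: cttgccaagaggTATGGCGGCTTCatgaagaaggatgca
Penk, leu-enkephalin: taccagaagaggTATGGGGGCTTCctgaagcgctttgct
Pomc, beta-endorphin: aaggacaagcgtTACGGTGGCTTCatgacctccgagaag
The full-length Penk transcript held 7 copies of the opioid core, 6 followed by methionine and 1 by leucine, whereas Pomc held 1 copy beside 3 copies of the melanocortin core histidine-phenylalanine-arginine-tryptophan. The single Trh transcript held 5 copies of its core, glutamine-histidine-proline-glycine, in 256 residues. A precursor of this kind can thus give several peptides, so the mRNA level of a gene is not the number of its peptides.

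Levels are given as TPM, an abundance that divides reads by transcript length and scales each library to the same total. Reads are the deposited expected counts. Detection meant reaching 1 TPM. By that measure 5 of the 10 precursors were found in both pups, all of the interneuron and striatal group (Npy, Sst, Cck, Penk and Tac1). The rest were found in 1 pup or not at all: Pomc in pup 1 alone, Avp and Adcyap1 in pup 3 alone, and Oxt and Trh in neither. For comparison, 24.7% of 21461 nuclear protein-coding genes were shared by the pups, pup 1 alone held 17.4%, pup 3 alone held 4.22%, and 53.6% were in neither. Pup 1 held 6 of the 10 precursors and pup 3 held 7, against 42.2% and 28.9% of all nuclear protein-coding genes. The counts of the gene lists below are to be read against the same shares. With 1 library per pup no test between pups is possible, and animal and technical spread are not separated.

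**Figure D1:**
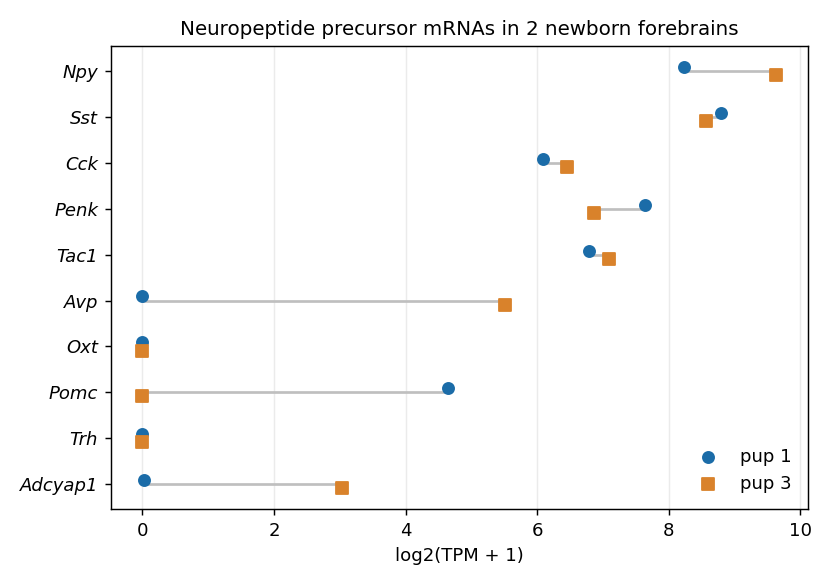
Level of each of the 10 precursors as log2(TPM + 1) on the horizontal axis, with a circle for pup 1 and a square for pup 3 and a grey line joining them. Npy, Sst, Cck, Penk and Tac1 lie to the right in both pups, Avp and Adcyap1 are at or near 0 in pup 1, Pomc is at 0 in pup 3, and Oxt and Trh are at 0 in both.

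Libraries differed in depth and complexity. Pup 1 had 41082811 expected counts and pup 3 had 29881397, spike-in RNA took 4.46% and 7.30% of TPM, and 10795 and 7440 nuclear protein-coding genes had any reads. Genes with reads seldom had few: 10.3% of them in pup 1 and 11.7% in pup 3 had 1 to 9 reads. Of the cortical excitatory list, the marker set of the main forebrain neurons, 8 of 12 genes were found in both pups, led by Neurod6 (272 and 456 TPM in pups 1 and 3), Mef2c (145 and 86.9 TPM), Cux1 (40.9 and 29.2 TPM) and Slc17a6 (55.2 and 14.3 TPM). The list of other cell types had 14 of 22 genes in both pups, summing to 4929 and 5429 TPM, led by the choroid plexus product Ttr at 1724 and 1898 TPM and followed by Apoe at 1172 and 1183, Hbb-bs at 457 and 816 and Hba-a1 at 353 and 747 TPM. The haemoglobin genes were thus higher in pup 3, as was Npy, and the part of blood, depth and library complexity in the differences between pups was not tested.

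Among the interneuron peptides, Npy (ENSMUSG00000029819, chromosome 6, 49822710 to 49829507, plus strand), which encodes neuropeptide Y, measured 298 TPM (3693 reads) in pup 1 against 795 TPM (8607 reads) in pup 3. It was thus higher in pup 3, by 2.67-fold, with a mean of 547 ± 352 TPM (SD, n = 2). The deposited credibility bounds go with the posterior mean TPM, a separate deposited estimate, and cover read assignment and not the animals. They were 283 to 301 TPM in pup 1 and 761 to 794 TPM in pup 3 and did not overlap. The 795 TPM of pup 3 thus lay just above its bounds. Among 259 nuclear protein-coding genes averaging 500 TPM or more, 11.2% were higher in pup 3 past 2-fold on the log2(TPM + 1) scale and 78.8% lay within 2-fold.

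Sst (ENSMUSG00000004366, chromosome 16, 23889573 to 23890958, minus strand), the somatostatin precursor, was nearly level. It measured 443 TPM (5883 reads) in pup 1 against 379 TPM (4396 reads) in pup 3, a mean of 411 ± 45.2 TPM (SD, n = 2). Its log2 ratio (pup 3 over pup 1) was -0.22 in TPM but 0.04 in FPKM and in CPM, so its direction depends on the scale. Sst was 1.49 times as abundant as Npy in pup 1, whereas Npy was 2.10 times as abundant as Sst in pup 3. The order of the 2 leading precursors therefore differed between pups.

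Cck (ENSMUSG00000032532, chromosome 9, 121489824 to 121495694, minus strand), which encodes cholecystokinin and is made by pyramidal cells as well as interneurons, was the lowest of the 5 precursors found in both pups. It measured 67.3 TPM (1047 reads) in pup 1 against 86.2 TPM (1170 reads) in pup 3, with a mean of 76.7 ± 13.3 TPM (SD, n = 2). Its deposited bounds were 62.0 to 70.1 and 79.5 to 89.1 TPM. Sst exceeded it 6.59-fold in pup 1 and 4.40-fold in pup 3, so that order held in each library.

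The steady detection of these peptides was not shared by every interneuron gene. Of 26 interneuron markers, 20 were found in pup 1 and 9 in pup 3, with 8 in both, and they summed to 845 and 374 TPM. The shares over all nuclear protein-coding genes were 42.2% in pup 1 and 28.9% in pup 3. These markers lay lower than the peptides, with medians of 7.43 and 0.0850 TPM. Of genes at 5 to 10 TPM in pup 1, 37.2% were found in pup 3. At 50 to 100 and 100 to 500 TPM in pup 1, where the 3 peptides lie, it was 73.7% and 93.3%. The GABA-synthesising enzyme genes were in both pups, Gad1 at 263 and 141 TPM and Gad2 at 18.9 and 18.2 TPM. Calb2, a calcium-binding protein of interneuron subtypes, was at 166 and 46.8 TPM, Nxph1 at 43.9 and 108 TPM and the transcription factor gene Dlx1 at 101 and 9.81 TPM. Lhx6, the transcription factor of interneurons from the medial ganglionic eminence, the class that makes Sst, had 14.0 TPM (1010 reads) in pup 1 against 0.430 TPM (31 reads) in pup 3. The vesicular GABA transporter Slc32a1 had 1.87 TPM in pup 1 but no reads in pup 3. Sst thus stood at similar levels in 2 libraries whose Lhx6 levels were far apart.

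Of the striatal peptides, Penk (ENSMUSG00000045573, chromosome 4, 4133531 to 4138819, minus strand), the proenkephalin gene, measured 198 TPM (5844 reads) in pup 1 against 115 TPM (3034 reads) in pup 3. It was 1.72-fold higher in pup 1, with a mean of 156 ± 58.7 TPM (SD, n = 2). The annotation places a non-coding gene, A830012C17Rik, over its 5′ end on the opposite strand, which was listed at 0 TPM in both pups.

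Tac1 (ENSMUSG00000061762, chromosome 6, 7554879 to 7565834, plus strand), which encodes substance P and neurokinin A, measured 109 TPM (2581 reads) in pup 1 against 135 TPM (2341 reads) in pup 3. Its mean was 122 ± 18.5 TPM (SD, n = 2), and it was 1.24-fold higher in pup 3. Penk was 1.82 times as abundant as Tac1 in pup 1, and Tac1 was 1.18 times as abundant as Penk in pup 3. The order of the pair in TPM therefore turned between pups, while both lay below Sst and above Cck in each. It did not turn in reads per library total (CPM), where Penk was at 142 and 102 and Tac1 at 62.8 and 78.3. CPM takes no account of length, and the estimated length of Tac1 differed between pups, 994.4 bases in pup 1 and 848.9 in pup 3, against 1213 and 1241 for Penk. Among 1260 nuclear protein-coding genes averaging 100 to 500 TPM, where Sst, Penk and Tac1 lie, 61.1% were within 2-fold.

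Receptors and signalling genes of the striatum did not follow its peptides evenly. Of 21 striatal markers, 10 were found in pup 1 and 11 in pup 3, with 7 in both and nearly equal sums of 469 and 475 TPM. Meis2 (108 and 106 TPM) and Gng7 (70.4 and 79.5 TPM) were level, and Foxp1 was at 140 and 49.8 TPM. The dopamine receptor genes Drd1 and Drd2, which define the neurons that make substance P and enkephalin, had 0 reads in both pups. Ppp1r1b, which encodes the phosphoprotein DARPP-32 of striatal projection neurons, had 5 reads in pup 1 against 2892 reads, 72.7 TPM, in pup 3. Rxrg, of the same list, lay the other way, with 3560 reads, 69.6 TPM, in pup 1 against 1 read in pup 3. Across the striatal list, pup 1 alone held 3 genes and pup 3 alone held 4.

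**Figure D2:**
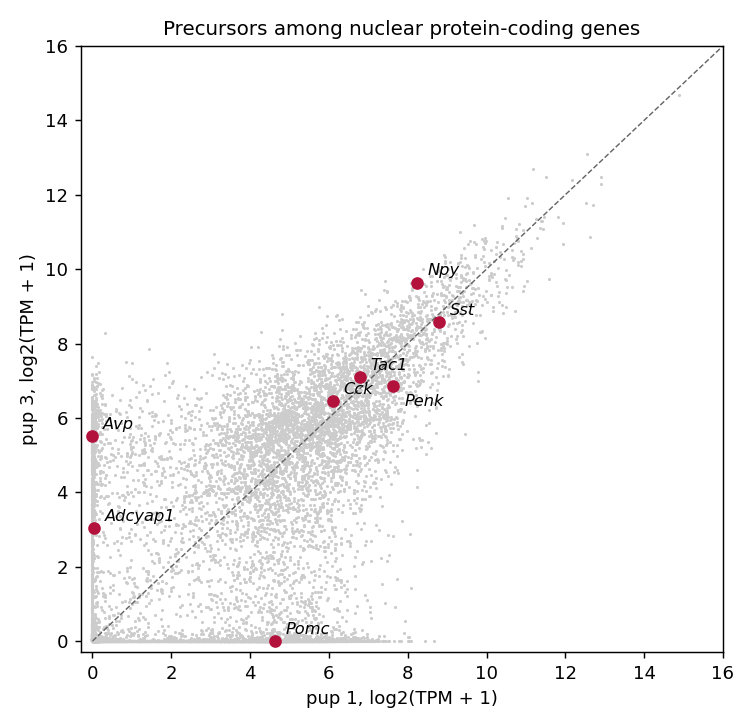
Each grey point is a nuclear protein-coding gene with signal in either pup, placed by log2(TPM + 1) in pup 1 (horizontal) and pup 3 (vertical), and red points are the 8 precursors with signal; the dashed line marks equal levels. Npy, Sst, Cck, Penk and Tac1 lie in the cloud of genes seen in both libraries, and Avp, Adcyap1 and Pomc lie on or next to the axes.

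The 2 striatal precursors have more than 1 listed transcript, which allows their isoforms to be compared. For Tac1 the transcripts differ in the peptides they encode. Tac1-205 (1230 bases, 130 residues) and Tac1-203 (691 bases, 115 residues) code for both substance P and neurokinin A, and Tac1-201 (980 bases, 112 residues) codes for substance P alone. In pups 1 and 3, Tac1-205 was at 52.6 and 11.9 TPM, Tac1-203 at 40.1 and 71.2 TPM, and Tac1-201 at 15.9 and 51.5 TPM. The leading form was thus Tac1-205 in pup 1 and Tac1-203 in pup 3. The other listed transcripts were Tac1-202 (1975 bases), at 0 TPM in both pups, and Tac1-204 (434 bases), with 1 read in pup 3. Transcripts coding for both peptides held 85.4% of Tac1 TPM in pup 1 and 61.7% in pup 3, and 85.6% and 55.1% of its reads. Those forms summed to 92.7 and 83.1 TPM, and the rest to 15.9 and 51.6 TPM. Transcripts of 1 gene share exons, so the split is an estimate by the counting tool.

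Penk transcripts kept similar shares. The complete form Penk-201 (1449 bases) was at 134 and 81.9 TPM, which is 67.6% and 71.4% of the gene. Penk-202 (721 bases), an annotated fragment whose 3′ end is not known and which holds 3 of the opioid cores, took the remaining 32.4% and 28.6%. The other 8 precursors had 1 listed transcript each.

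**Figure D3:**
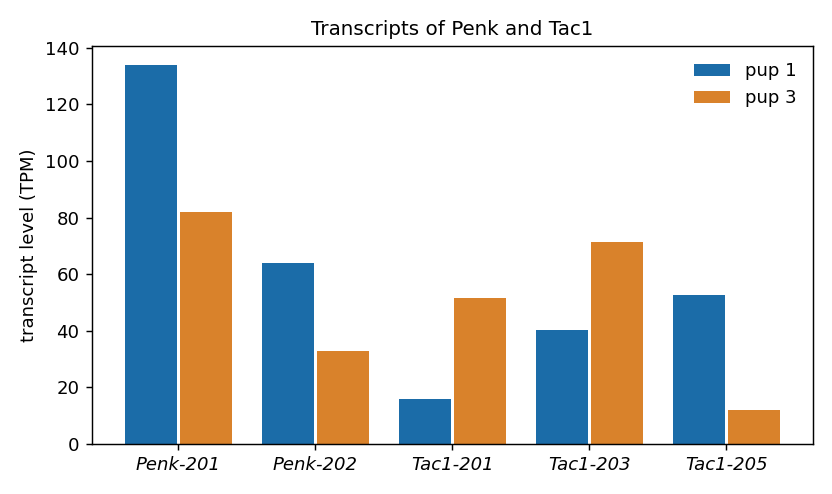
Bars give the level in TPM of each Penk and Tac1 transcript above 1 TPM, blue for pup 1 and orange for pup 3, with 1 library per bar and no error. Both Penk forms are higher in pup 1, while Tac1-205 leads in pup 1 (52.6 TPM) and Tac1-203 leads in pup 3 (71.2 TPM).

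None of the 4 hypothalamic precursors was found in both pups. Avp (ENSMUSG00000037727, chromosome 2, 130580620 to 130582554, minus strand), the vasopressin gene, had no reads in pup 1 against 492 reads, 44.4 TPM, in pup 3. With 0 reads set to a floor of 3 reads (0.236 TPM for this gene in pup 1), it was at least 188-fold higher in pup 3. Pomc (ENSMUSG00000020660, chromosome 12, 3954951 to 3960642, plus strand), the source of melanocortins and beta-endorphin, lay the other way. With 577 reads, 23.9 TPM, in pup 1 and none in pup 3, it was at least 168-fold higher in pup 1 against a floor of 3 reads (0.143 TPM in pup 3). Reads are not independent molecules, so such floors, and intervals on reads, carry counting error alone.

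Oxt (ENSMUSG00000027301, chromosome 2, 130576173 to 130577054, plus strand), the oxytocin gene, had 0 reads in both pups. Its floor of 3 reads is 0.258 TPM in pup 1 and 0.296 TPM in pup 3. Such a floor carries counting error alone and is no upper limit on the level in the tissue. Trh (ENSMUSG00000005892, chromosome 6, 92242061 to 92244650, minus strand), which encodes thyrotropin-releasing hormone, also had 0 reads in both pups, with floors of 0.0880 and 0.101 TPM. At this depth and input neither was detectable, which does not show that they were absent from the tissue.

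Avp and Oxt are neighbours on chromosome 2 and close relatives, so their reads need care. Their 9-residue peptides are encoded by the stretches below (Avp, chr2:130582446-130582472, minus strand; Oxt, chr2:130576267-130576293, plus strand), shown because the genes differ in detection; capitals mark the 5 of 27 bases that differ.
Avp: tgctacTtccagaactgcccAAGAggc
Oxt: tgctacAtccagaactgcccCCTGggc
The 2 transcripts share a run of 127 bases at most. The deposited effective lengths correspond to reads of 100 bases, and 28 of 478 such windows of the Avp transcript also occur in Oxt. The other 450 windows are not shared, and the counting tool gave Avp 492 reads and Oxt 0 in pup 3.

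How often a gene of such a level was found in the other pup differed by direction. Of 2216 nuclear protein-coding genes with 10 to 50 TPM in pup 3, where Avp lies, 80.3% (95% Clopper-Pearson interval 78.6 to 81.9) were found in pup 1 and 8.39% were listed at 0 there. Of 4117 genes at 10 to 50 TPM in pup 1, where Pomc lies, 50.7% (49.1 to 52.2) were found in pup 3 and 38.8% were listed at 0. These intervals take genes as independent trials.

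Other hypothalamic genes were sparse as well. Of 23 markers, 2 were shared, pup 1 alone held 3, pup 3 alone held 1, and 17 were in neither. The shares over all nuclear protein-coding genes were 24.7%, 17.4%, 4.22% and 53.6%. Listed at 0 in both pups were 16 of the markers, and 10059 of all 21461 nuclear protein-coding genes. The transcription factor genes Sim1 and Otp, which specify the neurons that make Avp, Oxt and Trh, had 0 reads in both pups, including pup 3 with its 492 Avp reads. Found in both were Arnt2, the partner of SIM1, at 34.3 and 6.78 TPM, and Dlk1 at 8.41 and 1.18 TPM. Pou3f2 (11.7 TPM), Fezf1 (5.63 TPM) and Tbx3 (2.52 TPM) were found in pup 1 with 0 reads in pup 3. The tyrosine hydroxylase gene Th, of catecholamine neurons, had 402 reads in pup 3 and none in pup 1. Pomc is also the main product of pituitary corticotrophs. All 12 pituitary markers, Gh, Prl and the corticotroph factor Tbx19 among them, were listed at 0 TPM in both pups. That count is to be read beside the same 10059 of 21461 nuclear protein-coding genes at 0 in both. A part of pituitary tissue was not tested.

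Adcyap1 (ENSMUSG00000024256, chromosome 17, 93199017 to 93206537, plus strand), which encodes the cAMP-raising peptide PACAP, had 1 read (0.0200 TPM) in pup 1 against 330 reads (7.16 TPM) in pup 3. The ratio was 378 with an exact 95% counting interval of 67.4 to 14971, which carries counting error alone. Of 447 nuclear protein-coding genes at 5 to 10 TPM in pup 3, where Adcyap1 lies, 78.1% were found in pup 1. Another 11.4% were listed at 0 there. The listed Adcyap1 transcript of 2088 bases is shorter than the 3392 bases of the same transcript in GENCODE M21. Reads in the added part were therefore not counted to it if they were sequenced. The same limit holds for Sst (599 against 721 bases), Pomc (1007 against 1031) and Cck (685 against 691). Each listed length was the same in both pups.

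Over the 8 precursors with signal, the log2 ratio of pup 3 over pup 1 had a median of 0.33. Past 2-fold, 3 were higher in pup 3 (Npy, Avp and Adcyap1), 1 was higher in pup 1 (Pomc), and 4 lay within 2-fold (Sst, Cck, Penk and Tac1). Over 9657 nuclear protein-coding genes averaging 1 TPM or more, 23.1% were higher in pup 3 past 2-fold and 48.3% in pup 1, with a median of -0.82. That median depended on mean level. It was 0.08 for genes in the range of Cck (50 to 100 TPM). The range of Sst, Penk and Tac1 (100 to 500 TPM) gave 0.15, and that of Npy (500 TPM or more) gave 0.12. Lower genes had negative medians, -1.04 in the range of Avp and Pomc (10 to 50 TPM) and -2.35 in that of Adcyap1 (1 to 5 TPM). The precursors summed to 1139 TPM in pup 1 and 1562 TPM in pup 3. Npy made up 26.2% of that sum in pup 1 and 50.9% in pup 3, and Sst 38.9% and 24.3%. They took 0.0478% and 0.0682% of all reads.

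Within their libraries the 5 shared precursors ranked high in TPM among all nuclear protein-coding genes, most of which were not found. Npy stood at percentile 97.8 of nuclear protein-coding genes in pup 1 and 99.3 in pup 3, Sst at 98.6 and 98.2, Penk at 96.5 and 93.4, Tac1 at 93.3 and 94.4 and Cck at 89.6 and 91.6. Averaged over the pups, the percentile of Cck was 90.6, but 75.5 in CPM and 79.0 among genes averaging 1 TPM or more, and that of Tac1 was 93.9, 85.2 and 86.4. Pomc was at percentile 77.0 in pup 1, and Avp at 85.1 and Adcyap1 at 74.9 in pup 3. The genes nearest to each in the 2 libraries, by Euclidean distance of log2(TPM + 1), were of mixed kinds. They were Atp5j2 and Ndufa5 for Npy (distances 0.029 and 0.119), Psmb3 and Slc25a3 for Sst (0.058 and 0.065), Fam171b and Coa7 for Cck (0.026 and 0.043), Tra2b and Pa2g4 for Penk (0.047 and 0.082) and Aplp1 and Coprs for Tac1 (0.042 and 0.045). Likeness over 2 libraries is only a shared pair of levels.

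Other neuropeptide precursors were mostly not found. Of 47 matched genes, 40 were in neither pup, pup 1 alone held 6, and 1 was shared. The shared one was Nts, the neurotensin gene, at 64.9 TPM (1856 reads) in pup 1 and 174 TPM (4337 reads) in pup 3, which is above Cck in pup 3 and near it in pup 1. The natriuretic peptide gene Nppc (17.7 TPM), the neurokinin B gene Tac2 (14.5 TPM) and the gastrin-releasing peptide gene Grp (12.3 TPM) had reads in pup 1 but none in pup 3. The other opioid precursors, Pdyn at 9.57 TPM and Pnoc at 8.68 TPM in pup 1, also had 0 reads in pup 3. Proenkephalin was thus the opioid precursor seen in both libraries.

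**Figure D4:**
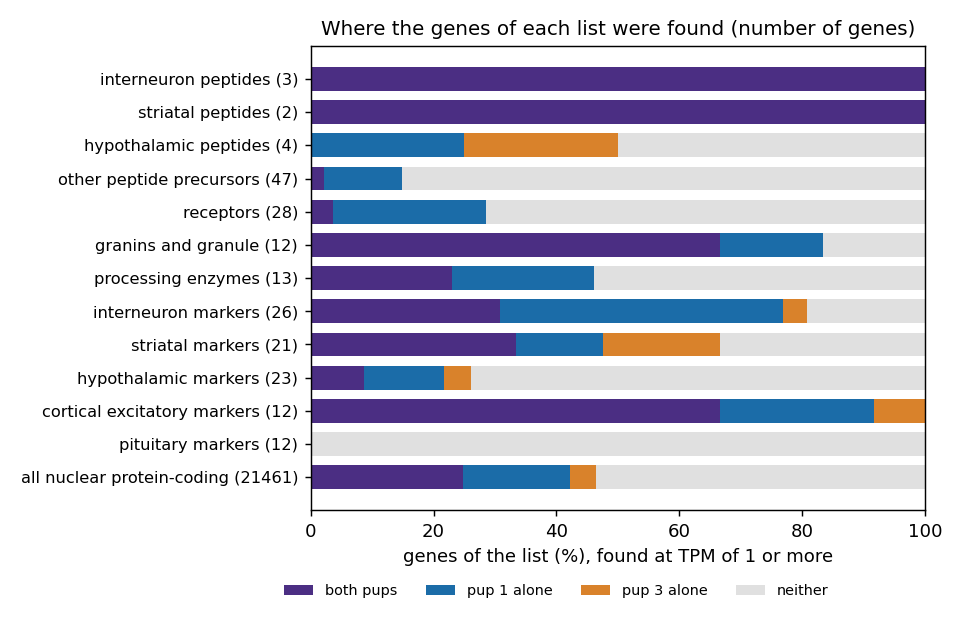
Bars split each list by where its genes reached TPM of 1 (purple both pups, blue pup 1 alone, orange pup 3 alone, grey neither), in percent of the matched genes, whose number stands beside the name. The interneuron and striatal peptides were all found in both pups, the receptor and other peptide lists were found mainly in pup 1 or in neither, and 0 of 12 pituitary markers were found.

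Most receptor genes of the 10 precursors were not found, and those found lay mainly in pup 1. Of 28 receptor genes, 1 was shared, pup 1 alone held 7, pup 3 alone held 0, and 20 were in neither. The shared one was the PACAP receptor Adcyap1r1, at 48.2 TPM (6411 reads) in pup 1 and 18.9 TPM (1692 reads) in pup 3, while its ligand gene Adcyap1 had 1 read in pup 1. The somatostatin receptors Sstr1 (26.8 TPM) and Sstr2 (34.3 TPM) and the neuropeptide Y receptors Npy1r (20.6 TPM) and Npy2r (24.4 TPM) were found in pup 1, each with 0 reads in pup 3, where Npy itself was higher. So were the mu-opioid receptor Oprm1 (11.1 TPM), the vasopressin receptor Avpr1a (14.3 TPM) and the thyrotropin-releasing hormone receptor Trhr (9.77 TPM). Avp was found in the pup in which Avpr1a was not. All of these receptors but Trhr lay at 10 to 50 TPM in pup 1, where 38.8% of nuclear protein-coding genes were listed at 0 in pup 3. A link between ligand and receptor levels was not tested. The receptors of substance P (Tacr1), cholecystokinin (Cckbr), oxytocin (Oxtr) and the melanocortins (Mc3r and Mc4r) had 0 TPM in both pups. Summed receptor levels were 190 and 18.9 TPM.

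The machinery that stores and cuts the precursors was present in part. Of 12 granin and granule genes, 8 were shared and pup 1 alone held 2, and their sums were close, 1034 and 1023 TPM. Scg5, whose product is the chaperone of convertase 2, was at 456 ± 55.5 TPM, Scg2 at 171 ± 60.0, Scg3 at 121 ± 48.9 and chromogranin A, Chga, at 115 ± 74.7 TPM (SD, n = 2). Chromogranin B and nucleobindin 2 were far apart in opposite directions, Chgb at 78.4 and 1.73 TPM and Nucb2 at 2.59 and 141 TPM.

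Of 13 processing enzyme genes, 3 were shared, pup 1 alone held 3, and 7 were in neither. These counts lie near the shares over all nuclear protein-coding genes, which were 24.7%, 17.4% and 53.6%. Carboxypeptidase E, Cpe, was at 403 and 204 TPM and cathepsin L, Ctsl, at 174 and 246 TPM. Pcsk7, a convertase of the secretory pathway, was at 25.4 and 13.9 TPM. The neuronal convertase gene Pcsk2 was at 24.1 TPM (2958 reads) in pup 1 and 0.620 TPM (66 reads) in pup 3, and Pcsk1 had 0 reads in both. Pam, which amidates peptides such as neuropeptide Y and substance P, had 10.6 TPM in pup 1 and 1 read in pup 3. Qpct, which forms the N-terminal pyroglutamate of peptides such as thyrotropin-releasing hormone, had 44.1 TPM in pup 1 but no reads in pup 3.

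**Figure D5:**
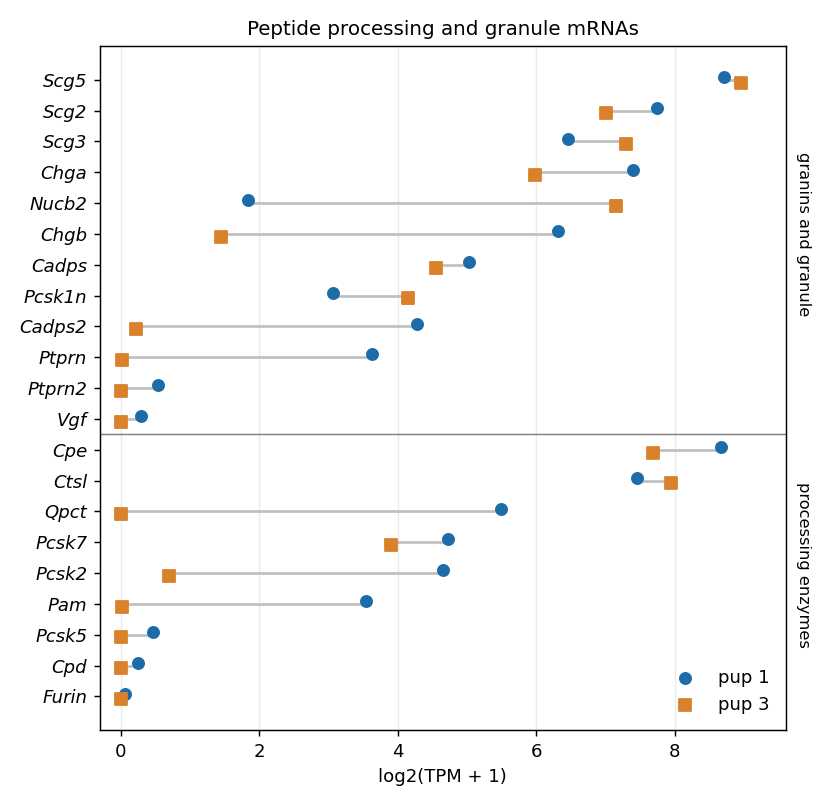
Levels as log2(TPM + 1) of granin and granule genes (top) and processing enzymes (bottom) with signal in either pup, with a circle for pup 1, a square for pup 3 and a grey line joining them. Scg5, Scg2, Scg3, Cpe and Ctsl lie to the right in both pups, while Pam, Qpct and Ptprn are at or near 0 in pup 3.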

How the data were processed

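The deposited gene and transcript tables, 1 pair per library and not pooled, hold expected counts (estimated reads, multi-mapped reads shared out), TPM, posterior mean TPM with credibility bounds of a level not stated, and FPKM, per the file headers. The columns carry the names used by RSEM. Deposited text names assembly mm10 and annotation M4. Not given in the sources used here were the aligner, counter, versions and strand setting. The FPKM values of the authors served only as an alternative, as did CPM computed from expected counts.

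Symbols, positions and transcripts came from GENCODE M21 on the same assembly, by identifier without version. Of 227 listed symbols 226 matched; Kiss1 did not. TPM of 1 was called found; log2 ratios used TPM + 1 and understate low genes; no test was made. Percentiles were taken among nuclear protein-coding genes, ties placed in the middle of their ranks. Coding stretches were found by translating M21 coding sequences. Members and lists were chosen with earlier results of these data known.

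Named were all 10 precursors, the 4 highest of each list by mean, found receptors, found hypothalamic and pituitary genes and defining markers. Chosen after their values were seen were Pcsk2, Pam, Pcsk1, Nucb2, Chgb, Rxrg, Pdyn, Pnoc, Ptprn, Tbx19, A830012C17Rik and receptors at 0. Steps were tested on simulated data. Scripts ran in Python 3.11.15 with scipy 1.17.1, numpy 2.4.6, pandas 2.3.3 and matplotlib 3.10.9. Alternatives covered the detection threshold, pseudocount, unit, rescaling without spike-ins and mitochondrial genes, a filter and each pup alone.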

Additional observations from a re-analysis of the deposited data

How the results depend on the processing

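Counts of precursors shared, found in a single pup or not found stayed within 1.5 times under thresholds of 0.1, 5 and 10 TPM, FPKM, CPM, posterior mean TPM and rescaling without spike-ins and mitochondrial genes, except that at 10 TPM the number in pup 3 alone was 1 in place of 2, since Adcyap1 lies at 7.16 TPM. Of the 8 found in either pup, 6 to 7 were found when 1 replicate was left out. The median log2 ratio was 0.59 in FPKM against 0.33 in TPM. The log2 ratio of Adcyap1 was 3.00 with 1 added to TPM, 5.92 with 0.1 and 0.78, within 2-fold, with 10. Mean percentiles of all 5 shared precursors were lower in CPM (75.5 for Cck to 93.2 for Sst) and among genes averaging 1 TPM or more (79.0 for Cck to 96.8 for Npy) than in the full set in TPM (90.6 for Cck to 98.6 for Npy). The whole scale moves: over 1519 protein-coding genes averaging 100 TPM or more, the median log2 ratio was 0.13 in TPM, 0.39 in FPKM and 0.34 in CPM. Of 90 values of single genes under an alternative, 71 were labelled as moving by less than the spread between pups and 19 by more. That tally does not measure robustness. With 2 pups, leaving 1 out always moves a mean by less than its SD. The log2 ratio of Avp went from 5.51 to 2.44 with 10 added to TPM and was still labelled as unmoved. The input of 13 pg and the 2 libraries limit what can be said of any precursor found in 1 pup.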
